A study of Mus musculus with 9 samples.

Results

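The epidermal clade B serpins described here are 10 genes of the mouse skin transcriptome, *Serpinb1a*, *Serpinb2*, *Serpinb3a*, *Serpinb3b*, *Serpinb3c*, *Serpinb3d*, *Serpinb5*, *Serpinb7*, *Serpinb8* and *Serpinb12*. They were chosen by name, with earlier results of these data known. All 10 were found among the 17943 genes of the count table, which holds 25 clade B serpins in all. Skin RNA was sequenced from 5 control and 4 *Supt6*-KO mice, 1 library per mouse, at 29627341 to 30491197 counts per control and 30597189 to 30967107 per *Supt6*-KO mouse. *Supt6*-KO mice carried K14-CreERT and Supt6 fl/fl and received tamoxifen. Controls carried Supt6 fl/fl without Cre and received corn oil. By the study's account both groups share the floxed alleles, while Cre, tamoxifen and the deletion cannot be told apart. The Keratin 14 promoter drives Cre in basal keratinocytes, so cells that arise from other lineages keep *Supt6*. Skin was taken 10 days after the last injection. The study's text places the injections in the first telogen phase of the hair cycle. An age for these mice is not given in the sources used here. The genotypes and treatments above are those of the study's text. The sample titles instead call the controls wild-type and the other mice *Supt6* KO. Other sample labels name *Supt6* knockdown, and they name ear where the methods name dorsal skin. The comparison asks how skin that lost SPT6, a transcription elongation factor, differs from control skin. *Supt6* itself was at 76.5 ± 17.2 CPM (library-scaled counts, SD, n = 5) in controls and 25.7 ± 3.31 (SD, n = 4) in *Supt6*-KO skin, with every *Supt6*-KO mouse below every control.

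Serpins are protease inhibitors that present a reactive loop as bait: the protease cuts the loop and is trapped as the serpin changes its fold. Most serpins are secreted, but those of clade B lack a classical signal peptide and work mainly inside cells. Stratified squamous epithelia express many of them, and loss of some, including SERPINB7 and SERPINB8 in people, causes disorders of peeling or thickened skin. In the mouse most genes of the clade lie in clusters on chromosomes 1 and 13. Of the 10 genes, 9 lie between *Serpinb5* and *Serpinb8* on chromosome 1, at chr1:106861175-107608978 (GRCm38), and *Serpinb1a* lies at chr13:32842092-32853206.

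Transcripts of the 10 genes together were more abundant in *Supt6*-KO skin, and the increase was far from even within the family. Their summed level was 1914 ± 303 CPM (SD, n = 5 controls) against 4617 ± 781 CPM (SD, n = 4 *Supt6*-KO mice), with every *Supt6*-KO mouse above every control. This was 2.41-fold with TMM scaling (trimmed mean of M values). As a share of all counts, without that scaling, it was 0.237% ± 0.0312 against 0.348% ± 0.0204, or 1.47-fold, again without overlap. *Serpinb3a* rose 43.9-fold, *Serpinb3d* and *Serpinb3c* rose from under 40 counts per control library, *Serpinb12* rose 5.16-fold, and *Serpinb1a*, *Serpinb3b* and *Serpinb2* rose 2.75-fold, 2.36-fold and 2.18-fold as ratios of group means. *Serpinb5* and *Serpinb8* showed smaller differences, and *Serpinb7* had no detectable difference. A gene was called changed at an adjusted p under 0.05 in edgeR's quasi-likelihood test, fitted to all 16426 genes tested, together with at least a 2-fold difference. By this rule 7 of the 10 genes were higher and 0 were lower, where 20.9% of all genes tested were called higher and 24.9% lower. At the adjusted p alone, 9 of 10 were higher, beside 34.1% of all genes. The median log2 fold change was 1.35 for the 10 genes and -0.07 for all genes tested. When libraries were scaled by their totals instead of TMM, the median of all genes shifted by -0.69, the median of the 10 fell to 0.64, and 4 of them were called higher (*Serpinb3a*, *Serpinb3c*, *Serpinb3d* and *Serpinb12*), beside 8.95% of all genes called higher and 41.4% lower. DESeq2 also called 7 of the 10 higher, beside 21.7% of all genes. In bulk skin, more cells of a type and more RNA per cell cannot be told apart.

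With TMM scaling, the *Supt6*-KO mice all lay above the controls for 7 of the 10 genes. Of all genes tested, 28.9% had *Supt6*-KO values all above the controls and 31.8% had values all below. With library totals *Serpinb2* and *Serpinb5* also overlapped. *Supt6*-KO mouse 4 stood apart. Its *Krt10* level was 7775 CPM against 18220 to 19850 in the other *Supt6*-KO mice, and its *Krt14* level was 9613 CPM against 3114 to 4730. Among the serpins it had the lowest value of the *Supt6*-KO group for 8 genes, and the highest for *Serpinb2*. Without this mouse, 9 of the 10 genes separated completely, with only *Serpinb7* overlapping, and the share of all genes was 33.9%.

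**Figure D1:**
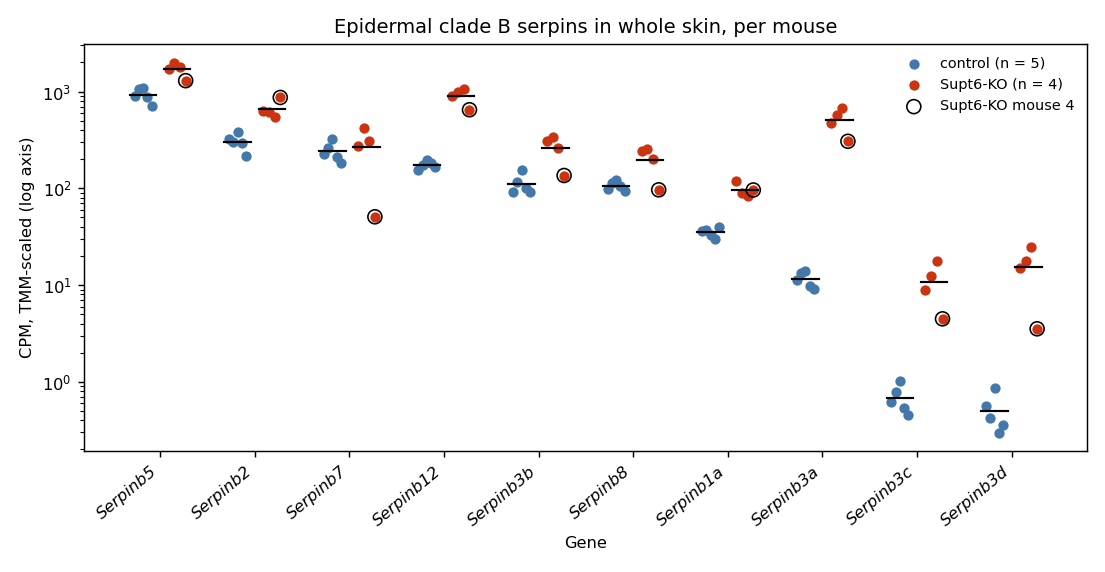
TMM-scaled CPM (log axis) of each of the 10 serpins in 5 control (blue) and 4 *Supt6*-KO mice (red), with bars at group means and *Supt6*-KO mouse 4 circled. The groups separate for 7 genes and overlap for *Serpinb3b*, *Serpinb7* and *Serpinb8*, where the circled mouse falls within or below the controls.

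The *Serpinb3* genes are the mouse counterparts of the human squamous cell carcinoma antigens, which inhibit papain-like cysteine proteases such as cathepsins L and S and chymotrypsin-like serine proteases. *Serpinb3a* (NCBI Gene 20248, chr1:107045587-107052303) was at 11.4, 13.4, 13.9, 9.76 and 9.09 CPM in control mice 1 to 5 and at 469, 566, 679 and 306 CPM in *Supt6*-KO mice 1 to 4. The lowest *Supt6*-KO mouse was thus far above the highest control. Its log2 fold change was 5.45 (SE 0.25, adjusted p = 8.2e-08), and the two-sided exact permutation test over mice gave p = 0.016, the smallest value that the 126 splits of 5 and 4 mice allow. With library totals it was 4.72, and leaving out any mouse gave 5.28 to 5.63.

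*Serpinb3b* (chr1:107153961-107161114) was the abundant *Serpinb3* gene of control skin. Control mice 1 to 5 had 92.4, 115.7, 156.1, 99.7 and 91.3 CPM, and *Supt6*-KO mice 1 to 4 had 306, 342, 263 and 136 CPM. *Supt6*-KO mouse 4 lay below control mouse 3, and the other *Supt6*-KO mice lay above all controls. This gave a log2 fold change of 1.24 (SE 0.25, adjusted p = 0.001, two-sided exact permutation p = 0.032), and with library totals the call was lost (0.50, adjusted p = 0.052).

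*Serpinb3c* (chr1:107271201-107278371) and *Serpinb3d* (chr1:107078163-107083480) were scarce in control skin. *Serpinb3c* had 23, 29, 37, 20 and 18 counts in the control libraries, and 214, 260, 384 and 125 in those of *Supt6*-KO mice 1 to 4. *Serpinb3d* had 11 to 31.4 counts in controls, and 361, 371, 543 and 98.4 in *Supt6*-KO mice. For both genes each *Supt6*-KO mouse exceeded each control, with mouse 4 the lowest and mouse 3 the highest of its group. Log2 fold changes were 3.98 (SE 0.39, adjusted p = 4.7e-06) for *Serpinb3c* and 4.92 (SE 0.52, adjusted p = 7.9e-06) for *Serpinb3d*. Of the 25 clade B genes in the table, these 4 *Serpinb3* genes alone had estimated counts that were not whole numbers, as arise when reads are divided between similar genes.

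The transcripts of *Serpinb3a* and *Serpinb3b* are 93.1% identical over 1617 aligned bases, and those of *Serpinb3b* and *Serpinb3c* 94.0%. Even so, of all windows of 100 bases (the read length) in the *Serpinb3a* and *Serpinb3d* transcripts, 100% were found in no other clade B gene, and 99.5% in *Serpinb3b* and *Serpinb3c*. Summed to 1 row, the 4 genes had a log2 fold change of 2.68 (SE 0.25, adjusted p = 3.4e-06), which does not depend on how reads were divided among them. The division itself shifted. *Serpinb3b* made up 89.6% ± 1.19 of the *Serpinb3* counts in controls and 32.9% ± 5.41 in *Supt6*-KO skin, while *Serpinb3a* made up 9.42% ± 1.12 and 64.0% ± 5.26 (SD, n = 5 and 4). Counts of *Serpinb3a* per count of *Serpinb3b* were 0.123, 0.116, 0.0894, 0.0978 and 0.0995 in control mice 1 to 5. They were 1.53, 1.66, 2.58 and 2.26 in *Supt6*-KO mice 1 to 4. Thus *Serpinb3b* led in every control and *Serpinb3a* led in every *Supt6*-KO mouse. The ratio, in which library scaling cancels, separated the groups completely (two-sided exact permutation p = 0.016, the smallest value possible). Of the ratios and shares computed it alone was tested, and this test was not planned.

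The promoters of the 4 *Serpinb3* genes are shown because genes with closely related start regions differed in their change. RefSeq (GRCm38.p6) gives windows of 300 bases, from 250 before to 50 after the annotated start, all on the minus strand here: chr1:107052254-107052553 for *Serpinb3a*, chr1:107161065-107161364 for *Serpinb3b*, chr1:107278322-107278621 for *Serpinb3c* and chr1:107083431-107083730 for *Serpinb3d*. Sequences run 5′ to 3′, and capitals mark the TATA box letters TATAAA, or TTTATA where they lie on the opposite strand.
Serpinb3a: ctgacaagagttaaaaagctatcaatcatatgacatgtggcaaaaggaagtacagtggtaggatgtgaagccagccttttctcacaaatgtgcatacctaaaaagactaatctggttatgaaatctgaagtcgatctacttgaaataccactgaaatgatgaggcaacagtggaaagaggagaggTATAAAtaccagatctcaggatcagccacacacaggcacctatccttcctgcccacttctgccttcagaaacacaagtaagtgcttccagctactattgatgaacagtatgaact
Serpinb3b: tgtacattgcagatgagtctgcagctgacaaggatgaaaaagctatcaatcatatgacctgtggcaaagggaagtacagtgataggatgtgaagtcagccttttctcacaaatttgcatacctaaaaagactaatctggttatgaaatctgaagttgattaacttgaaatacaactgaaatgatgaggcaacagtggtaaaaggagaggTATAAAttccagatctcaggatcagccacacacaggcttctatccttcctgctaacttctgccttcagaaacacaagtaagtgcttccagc
Serpinb3c: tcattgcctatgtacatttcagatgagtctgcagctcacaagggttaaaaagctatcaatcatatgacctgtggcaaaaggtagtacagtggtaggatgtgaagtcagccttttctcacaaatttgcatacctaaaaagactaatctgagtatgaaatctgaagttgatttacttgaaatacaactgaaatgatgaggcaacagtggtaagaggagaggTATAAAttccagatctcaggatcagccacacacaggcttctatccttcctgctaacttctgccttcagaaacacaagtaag
Serpinb3d: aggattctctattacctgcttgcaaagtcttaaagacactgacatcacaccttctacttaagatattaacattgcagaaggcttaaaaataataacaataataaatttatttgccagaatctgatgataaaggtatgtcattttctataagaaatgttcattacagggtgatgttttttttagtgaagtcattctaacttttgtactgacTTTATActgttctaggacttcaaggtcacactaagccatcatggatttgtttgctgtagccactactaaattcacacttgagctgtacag

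The *Serpinb3a* window was 93.1% identical to that of *Serpinb3b* and 93.6% to that of *Serpinb3c*, and the latter were 96.2% identical to each other, while *Serpinb3d* matched the other windows at 54.5 to 60.9%. The TATA letters began at position -65 in *Serpinb3a*, -41 in *Serpinb3b* and -31 in *Serpinb3c*, counted from the annotated start. A window was listed for 9 of the 10 serpins, *Serpinb1a* being the exception. TATAAA, searched on both strands, was present for 7 of the 9 genes (77.8%) and for 15.7% of all 26994 genes with a listed window. TGANTCA, the AP-1 motif with any base allowed at its centre, was present for 5 of the 9 (55.6%) and for 8.98% of all genes. *Serpinb7* and *Serpinb8* held TGAGTCA, while *Serpinb2*, *Serpinb5* and *Serpinb12* held TGAATCA or TGATTCA. The NF-κB consensus was matched in 0 of the 9 and in 9.55% of all genes, which says only that those letters are not in these windows. The motif shares are descriptions of sequence and carry no test. *Serpinb12* and *Serpinb7*, shown next, are on the plus strand at chr1:106934199-106934498 (the first of 2 listed starts) and chr1:107422439-107422738. In both windows a TGANTCA match lay at position -45 to -39, as TGATTCA in *Serpinb12* and TGAGTCA in *Serpinb7*. *Serpinb12* was called higher, while *Serpinb7* was not called in either direction, and the difference between these genes was not tested. Capitals mark these TGANTCA matches and the TATA box letters.
Serpinb12: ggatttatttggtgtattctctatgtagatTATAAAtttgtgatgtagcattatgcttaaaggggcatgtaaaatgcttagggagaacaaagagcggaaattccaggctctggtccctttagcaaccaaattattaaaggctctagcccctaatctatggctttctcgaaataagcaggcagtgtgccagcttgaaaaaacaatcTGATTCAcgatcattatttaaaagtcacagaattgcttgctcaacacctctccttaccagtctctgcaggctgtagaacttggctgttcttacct
Serpinb7: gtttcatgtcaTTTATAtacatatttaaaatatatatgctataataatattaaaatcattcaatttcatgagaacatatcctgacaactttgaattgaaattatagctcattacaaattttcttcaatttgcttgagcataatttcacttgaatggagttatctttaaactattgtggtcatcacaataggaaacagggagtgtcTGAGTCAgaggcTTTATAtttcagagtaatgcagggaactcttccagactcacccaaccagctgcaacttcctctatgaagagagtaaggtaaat

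*Serpinb12*, an inhibitor of trypsin-like serine proteases (NCBI Gene 71869, chr1:106934449-106957080), was at 156, 172, 195, 182 and 166 CPM in control mice 1 to 5. In *Supt6*-KO mice 1 to 4 it was at 891, 989, 1070.0 and 649 CPM. All *Supt6*-KO mice were well above all controls, and the controls varied little among themselves. *Serpinb12* had a log2 fold change of 2.37 (SE 0.16, adjusted p = 6.9e-07, two-sided exact permutation p = 0.016) with TMM and 1.65 (adjusted p = 9.7e-07) with library totals. *Serpinb12* thereby went from 9.23% ± 1.23 of the counts of the 10 serpins in controls to 19.4% ± 1.417 in *Supt6*-KO skin.

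*Serpinb1a* encodes an inhibitor of the neutrophil granule proteases elastase, cathepsin G and proteinase 3. It was at 36.0, 37.2, 33.0, 30.1 and 39.8 CPM in controls and at 119, 88.6, 83.8 and 96.2 CPM in *Supt6*-KO mice 1 to 4. The groups did not overlap, and mouse 4 was not low for this gene. The difference was 1.46 on the log2 scale (SE 0.13, adjusted p = 3.1e-06), and with library totals it stayed positive but under 2-fold (0.77, adjusted p = 0.0017). Leukocytes also express *Serpinb1a*. The summed level of 10 neutrophil markers went from 21.9 ± 3.65 to 67.9 ± 31.01 CPM. Of these 10, 6 were called higher and 1 lower, beside 20.9% and 24.9% of all genes tested. With library totals 5 were higher and 1 lower, beside 8.95% and 41.4%. The most abundant by mean CPM were *Mmp9* in controls (12.6 ± 1.31) and *Retnlg* in *Supt6*-KO skin (20.6 ± 22.2, with mouse 3 at 53.4). *Csf3r*, the receptor for granulocyte colony-stimulating factor, rose from 0.495 ± 0.143 to 8.47 ± 2.99 CPM, and *Mmp8*, the neutrophil collagenase, from 0.107 ± 0.0631 to 3.74 ± 2.25 CPM. Of the defining genes, *Ly6g* was called higher, with 0 or 1 count per control library and 4, 0, 15 and 1 counts in *Supt6*-KO mice 1 to 4, and *Mpo*, or myeloperoxidase, was the 1 called lower, with 4 to 26 counts per control library and 0 or 1 in *Supt6*-KO libraries. The sum of 8 macrophage markers went from 131 ± 42.8 to 244 ± 19.8 CPM, with 6 called higher and 1 lower, and with library totals 2 higher (*Mrc1* and *Ly6c2*) and 1 lower. *Mrc1*, the most abundant by CPM in each *Supt6*-KO mouse, rose from 21.7 ± 12.1 to 80.3 ± 11.4 CPM, and *Csf1r*, the most abundant in each control, fell from 41.9 ± 12.2 to 11.8 ± 3.17 CPM. The part of leukocytes in the *Serpinb1a* result was not tested.

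*Serpinb2*, plasminogen activator inhibitor type 2 (chr1:107500892-107525600), was at 324, 299, 386, 296 and 216 CPM in controls and 630.3, 612, 544 and 869 CPM in *Supt6*-KO mice 1 to 4. Every *Supt6*-KO mouse exceeded every control, and here mouse 4 was the highest. Its log2 fold change was 1.13 (SE 0.19, adjusted p = 0.00026), 0.97 without mouse 4, and 0.46 (adjusted p = 0.081) with library totals, where the groups overlapped. Counts of *Serpinb2* per count of *Serpinb5* were 0.364, 0.306 and 0.306 in *Supt6*-KO mice 1 to 3, within the control range of 0.280 to 0.359 or just above it, and 0.671 in mouse 4.

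*Serpinb5*, known as maspin, is a clade B member that does not act as a protease inhibitor, and it had the most counts of the 10 in every mouse, uncorrected for transcript length. Its levels were 909.5, 1067, 1077, 879 and 707 CPM in controls and 1730.0, 1997, 1780.0 and 1296 CPM in *Supt6*-KO mice 1 to 4. The groups did not overlap with TMM scaling, but they did with library totals. The log2 fold change of 0.87 (SE 0.18, adjusted p = 0.0012) was under 2-fold and fell to 0.16 (adjusted p = 0.32) with library totals. Its share of the counts of the 10 serpins was 48.5% ± 1.88 in controls and 36.8% ± 0.765 in *Supt6*-KO skin, where the sum of the 10 rose more than *Serpinb5* did.

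*Serpinb8*, an inhibitor of the proprotein convertase furin, was at 98.2, 113, 123, 105 and 92.9 CPM in controls and at 240.4, 255, 199 and 96.5 CPM in *Supt6*-KO mice 1 to 4. Mouse 4 was within the control range, and the other *Supt6*-KO mice were above it. On the log2 scale the difference was 0.89 (SE 0.24, adjusted p = 0.0052, two-sided exact permutation p = 0.079). It was 1.12 (adjusted p = 1.1e-05) without mouse 4 and 0.16 (adjusted p = 0.49) with library totals. *Furin* itself fell from 102.5 ± 14.3 to 46.9 ± 12.7 CPM (log2 fold change -1.13, adjusted p = 0.00022).

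*Serpinb7*, known as megsin, was at 227, 263, 326, 209 and 184 CPM in controls and at 277, 422, 310.4 and 50.8 CPM in *Supt6*-KO mice 1 to 4. Mouse 4 was below all controls, mouse 2 was above all controls, and the others were within the control range. The log2 fold change was 0.13 (SE 0.43, adjusted p = 0.80, two-sided exact permutation p = 0.86), the widest error of the abundant members. It was 0.48 (adjusted p = 0.044) without mouse 4, -0.20 without mouse 2, and -0.64 (adjusted p = 0.16) with library totals, so no direction can be given.

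**Figure D2:**
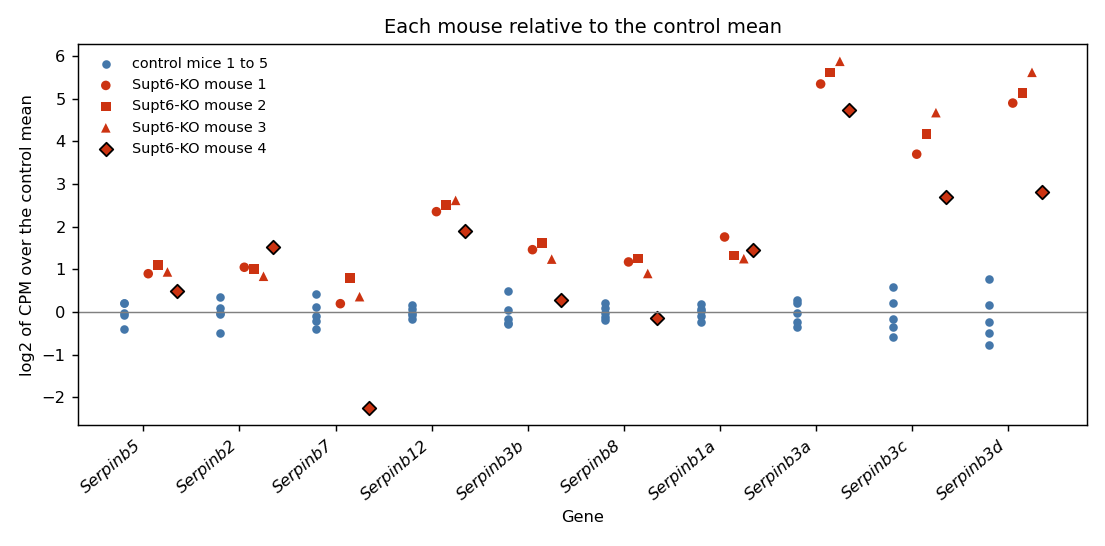
Log2 of each mouse's CPM over the control mean for the 10 serpins, controls in blue and *Supt6*-KO mice 1 to 4 in red by symbol. Mice 1 to 3 lie close together for most genes, while mouse 4 (diamond) is low for *Serpinb7*, *Serpinb8* and the *Serpinb3* genes and high for *Serpinb2*.

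Per unit of transcript length, the order of the 10 genes can be read only from TPM (transcript abundance scaled per length and library), which were deposited for the controls and *Supt6*-KO mouse 4. In controls *Serpinb5* led with 645 ± 34.4 TPM (SD, n = 5). *Serpinb2* (288 ± 38.7), *Serpinb7* (241 ± 33.0) and *Serpinb12* (211 ± 24.3 TPM) followed, and the ranges of neighbours in this trio overlapped. *Serpinb3b* (132.5 ± 22.6), *Serpinb8* (65.8 ± 4.71), *Serpinb1a* (35.2 ± 7.03) and *Serpinb3a* (13.8 ± 1.14 TPM) came next without overlap. *Serpinb3d* (0.93 ± 0.359) and *Serpinb3c* (0.794 ± 0.183 TPM) were last, and their ranges overlapped. In *Supt6*-KO mouse 4 the order was *Serpinb5* (459), *Serpinb2* (419), *Serpinb12* (396.5), *Serpinb3a* (187) and *Serpinb3b* (82.8 TPM). *Serpinb3a* thus ranked the fourth of the 10 there against the eighth in controls, and *Serpinb7* (25.9 TPM) ranked the eighth against the third.

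Whole skin holds many cell types, and the markers of some of them differed between the groups. By summed CPM, markers of muscle, hair follicle, endothelium and T cells separated the groups, while those of keratinocytes, fibroblasts and mast cells overlapped. Among all genes tested, 20.9% were called higher and 24.9% lower, or 8.95% and 41.4% with library totals. Of 7 basal keratinocyte markers, 4 were called lower and 0 higher. Their sum went from 12130 ± 688 to 8831 ± 3673 CPM with overlap between the groups. By mean CPM *Krt5* led this list in controls (4631 ± 202) and *Krt14* in *Supt6*-KO skin (5355 ± 2915). Of 7 suprabasal markers, 3 were called higher and 1 lower. *Krt1* was at 833 ± 159 and 10420 ± 2428 CPM. The most abundant, *Krt10*, was at 14340 ± 729 and 16350 ± 5761 CPM (log2 fold change 0.19, or -0.55 with library totals). The 1 called lower was *Lor*, at 1156 ± 284 and 492 ± 222 CPM (log2 fold change -1.23, adjusted p = 0.0086). By RT-qPCR the paper reports higher *Lor* mRNA in *Supt6*-KO skin. Markers of muscle (4 of 5), hair follicle (4 of 4 tested), endothelium (3 of 3) and fibroblasts (2 of 6) were called lower, and no gene of these lists was called higher. With library totals 6 basal, 5 muscle and 5 fibroblast markers were called lower, and the suprabasal counts stayed at 3 and 1. Of the T cell markers 1 of 4 in the table was called higher and 2 lower, and of the mast cell markers 1 of 6 was higher. Per 1000 counts of *Krt5*, *Krt14* and *Krt10* together, the 10 serpins had 83.9, 93.8, 107, 75.8 and 68.5 counts in controls and 174, 214.5, 205 and 167 counts in *Supt6*-KO mice 1 to 4. The groups did not overlap on this scale, which library scaling does not affect, and 7 of the 10 genes separated completely, beside 25.2% of all genes tested whose *Supt6*-KO values all lay above the controls on the same scale. The mean log2 difference was 1.16 (pooled SD 0.22). Per *Krt10* alone it was 1.17 and 9 genes separated, beside 21.5% of all genes. Per *Krt14* alone it was 0.74, 4 genes separated (*Serpinb3a*, *Serpinb3c*, *Serpinb3d* and *Serpinb12*), beside 6.21% of all genes, and mouse 4, with its high *Krt14*, was below every control for the 10 genes summed. The part of cell composition in the serpin differences was not tested further.

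The other 15 clade B serpins in the table did not move as a block. Of these, 12 passed the low-count filter, and 4 were called higher and 3 lower, beside 20.9% and 24.9% of all genes tested. The median log2 fold change of the 12 was 0.42. With library totals 3 were higher and 4 lower, beside 8.95% and 41.4% of all genes tested, and the median turned to -0.28. *Serpinb11* rose from 12.2 ± 0.658 to 107 ± 15.3 CPM (log2 fold change 3.12, SE 0.12, adjusted p = 3.2e-08). *Serpinb6c* rose from 7.64 ± 3.42 to 50.9 ± 16.4 CPM (2.73, SE 0.34, adjusted p = 2.6e-05), and *Serpinb10*, or bomapin, from 77.0 ± 9.70 to 167 ± 41.5 CPM (1.11, SE 0.17, adjusted p = 0.00012). The *Serpinb10* call was lost with library totals (0.41, adjusted p = 0.036), where the groups overlapped. *Serpinb1b* had 1 to 4 counts per control library and 8 to 107 in *Supt6*-KO libraries. Lower were *Serpinb6d*, from 168 ± 55.5 to 21.96 ± 14.1 CPM (-2.94, SE 0.45, adjusted p = 0.00013), and *Serpinb1c*, from 3.06 ± 0.507 to 0.532 ± 0.299 CPM (-2.54, SE 0.38, adjusted p = 0.0001). *Serpinb13*, an inhibitor of cathepsins K and L, fell from 13.4 ± 1.97 to 5.09 ± 3.72 CPM (-1.41, SE 0.53, adjusted p = 0.032). Its call was lost without control mouse 2 or 3 or *Supt6*-KO mouse 3 (adjusted p = 0.057, 0.059 and 0.086). *Serpinb6a*, an inhibitor of cathepsin G, was at 193 ± 18.9 and 383 ± 42.8 CPM (0.99, SE 0.13, adjusted p = 3.7e-05), just under 2-fold. With library totals *Serpinb6a* was at 0.29 (adjusted p = 0.062), and the groups overlapped. *Serpinb9*, the granzyme B inhibitor, was at 4.38 ± 0.721 and 5.34 ± 0.569 CPM (0.28, adjusted p = 0.16).

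Higher and lower genes lay side by side in both clusters. On chromosome 1, *Serpinb13* (chr1:106980984-107001195), called lower, lies between *Serpinb12* and *Serpinb3a*, both called higher. *Serpinb7*, not called in either direction, lies between *Serpinb11* and *Serpinb2*, both called higher. On chromosome 13, *Serpinb1c*, called lower, follows *Serpinb1a*, called higher, in order of start position among clade B genes. By order of start position, 12 tested genes that are not serpins were taken as neighbours, 3 before the first and 3 after the last clade B gene of each cluster. Of the 3 after *Serpinb6a*, *Nqo2* lies within the span of *Serpinb6a* and *Ripk1* overlaps its end. Of the 12, 0 were called higher and 1 lower, beside 20.9% and 24.9% of all genes tested. The lower gene was *Mylk4* beside the chromosome 13 cluster (36.4 ± 4.97 CPM in controls and 2.25 ± 0.377 in *Supt6*-KO skin). With library totals 0 were higher and 3 lower, beside 8.95% and 41.4%. *Vps4b* and *Kdsr*, before *Serpinb5*, had log2 fold changes of 0.48 and 0.77, which became -0.22 and 0.03 with library totals, so no direction can be given for *Vps4b*.

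**Figure D3:**
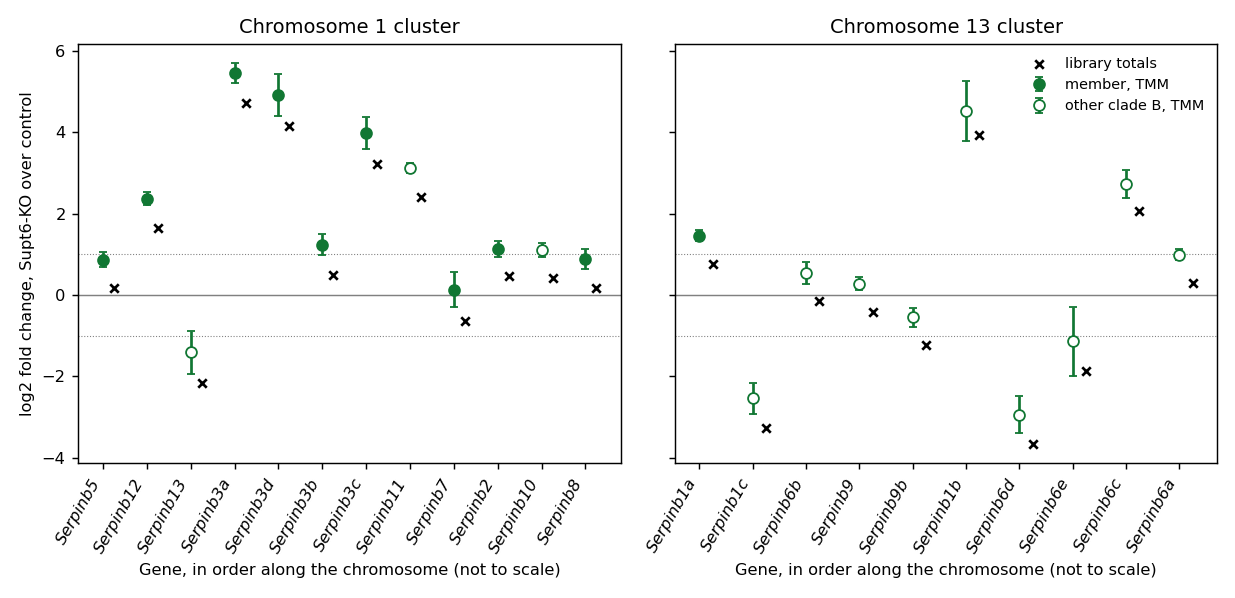
Log2 fold change (*Supt6*-KO over control) with SE for clade B genes in order along chromosomes 1 and 13, members filled and other clade B open with TMM, and crosses for library totals. Values run from -2.94 (*Serpinb6d*) to 5.45 (*Serpinb3a*), and *Serpinb7*, *Serpinb6b* and *Serpinb9* change sign with library totals.

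The table also holds 34 serpins of other clades, most of them secreted. Of these, 24 were tested, 3 were called higher and 11 lower, and the median was -1.07 (-1.02 with genes at the floor of 3 counts per library set to their bound). With library totals 1 was higher and 16 lower (median -1.82). Among all genes tested, 20.9% were called higher and 24.9% lower, or 8.95% and 41.4% with library totals. *Serpina3b* fell from 153 ± 74.8 to 4.97 ± 4.05 CPM, and *Serpina9* rose from 0.789 ± 0.452 to 44.7 ± 18.6 CPM. The difference between clades was not tested.

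The proteases that clade B serpins are known to bind, and other inhibitors of the same proteases, were described from fixed lists. Among all genes tested, 20.9% were called higher and 24.9% lower, or 8.95% and 41.4% with library totals. Of 10 papain-like cysteine proteases, 3 were called higher and 2 lower (median 0.49). With library totals 1 (*Ctsc*, 1.06) was higher and 2 lower, and the median turned to -0.21. *Ctsl*, the most abundant of them by CPM in *Supt6*-KO skin, rose from 414 ± 56.5 to 1222 ± 88.6 CPM (1.56, adjusted p = 4.1e-06), *Ctsc* rose by 1.75 and *Ctsh* by 1.41 on the log2 scale, and with library totals *Ctsl* (0.88) and *Ctsh* (0.69) were under 2-fold. *Ctss*, at 0.99 (adjusted p = 0.00013), was just under 2-fold, and with library totals it was at 0.28 (adjusted p = 0.15) with overlapping groups. *Ctsf* and *Ctsw* fell by 1.93 and 3.00. Of 10 other inhibitors of cysteine proteases, the cystatins and stefins, 9 were called higher and 0 lower. *Cstb* rose from 101 ± 22.7 to 778 ± 192 CPM and *Csta1* from 116 ± 23.1 to 811 ± 343 CPM, and *Cst3* did not pass (0.32, adjusted p = 0.23). The median of this list was 7.68. With library totals 8 were higher and 0 lower (median 6.97), *Cst6* was under 2-fold (0.79, against 1.51 with TMM), and *Cst3* turned to -0.42 (adjusted p = 0.062).

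Of 15 serine proteases of the epidermis, 11 were called higher and 3 lower (median 1.82), and with library totals 9 and 3 (median 1.12). Over all genes tested the shares were 20.9% higher and 24.9% lower, or 8.95% and 41.4% with library totals. The kallikrein-related peptidases that cut desmosomal proteins in the outer epidermis were among the higher genes, with the chymotrypsin-like *Klk7* at 449 ± 95.4 and 2229 ± 447 CPM and the trypsin-like *Klk5* at 111 ± 14.4 and 370.0 ± 128 CPM. Of 8 plasminogen system genes, 1 was called higher and 1 lower (median 0.58, or -0.09 with library totals). The urokinase receptor *Plaur* rose from 2.73 ± 0.494 to 12.2 ± 1.64 CPM, and *Serpine2* fell from 53.4 ± 5.65 to 16.1 ± 1.43 CPM. Urokinase itself, *Plau*, a target of *Serpinb2*, was at 0.96 (adjusted p = 0.00022). With library totals *Plau* was at 0.24 (adjusted p = 0.12), and the groups overlapped. Of 9 leukocyte granule serine proteases 8 were tested, and 2 were called higher and 0 lower (median 0.11, or -0.59 with library totals). *Gzmb* was at 0.138 ± 0.155 and 1.99 ± 0.574 CPM and *Gzma* had 0 to 2 counts per control library and 3 to 48 in *Supt6*-KO libraries. *Elane*, the elastase that *Serpinb1a* inhibits, had at most 1 count in any library, and *Prtn3* and *Ctsg* were under 1 CPM in both groups.

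The 3 genes whose pattern over the 9 mice was most like each of 3 members were found from the root mean square difference of centred log2 CPM among genes of at least 1 CPM. For *Serpinb3a* they were *Cstdc6* (0.227), *Tmprss11d* (0.230) and *Defb14* (0.258). *Cstdc6* and *Tmprss11d* had at most 1 and 4 counts in any control library and passed the 1 CPM limit through the *Supt6*-KO mice, so their small differences from *Serpinb3a* rest on the 0.5 CPM added before taking logs. Their fitted log2 fold changes were 11.39 and 8.78, against 5.45 for *Serpinb3a*. With control counts near or under the floor of 3 per library, the values of *Cstdc6* and *Tmprss11d* are not exact. For *Serpinb12* they were *Nipal1* (0.070), *Clec2g* (0.123) and *Eef1akmt4* (0.158), and for *Serpinb5* they were *Nkiras2* (0.024), *Mvb12a* (0.042) and *Tmem234* (0.047).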

How the data were processed

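Total RNA of skin from 5 control and 4 *Supt6*-KO mice was sequenced on DNBSEQ by the authors. The authors aligned reads to mm10 with Bowtie2 2.3.4.3 and deposited gene-level estimated counts made with RSEM 1.3.1, not normalized between libraries, and TPM, scaled per length and library, for 6 of the 9 libraries. The submitters' processing notes also name HISAT and DESeq2 1.4.5. Strand setting and annotation are not given in the sources used here, so overlapping antisense transcripts may add reads. The deposited estimated counts were rounded for the model fits only, and the counts, CPM, shares and ratios printed here are from unrounded values. Of 17943 identifiers, 17911 were matched to RefSeq GRCm38.p6 and 32 were not.

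Genes with under 10 counts over the 9 mice were left out. The other 16426 were tested with edgeR 4.0.16 in R 4.3.3 (quasi-likelihood, TMM, no block), with Benjamini-Hochberg adjustment over all of them, and SE is the absolute log2 fold change divided by the square root of F. Single genes were also tested by two-sided exact permutation of mean log2(CPM + 0.5). CPM is TMM-scaled. TPM was used only for levels. Counting error sets a floor of 3 counts per library.

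The members and lists were chosen with earlier results of these data known. The genes named are *Supt6*, the 10 members, other clade B genes, fixed protease, inhibitor, plasminogen system and cell marker lists, 3 neighbours on each side of each cluster by start position, and the 3 genes most like *Serpinb3a*, *Serpinb5* and *Serpinb12*. Within the lists, examples were chosen after their values were seen. *Serpinb9f*, *Serpinb9g* and *Serpinb9h* were not analysed here, and *Serpinb9c*, *Serpinb9d* and *Serpinb9e* were at or under the floor throughout. Results were also computed with DESeq2 1.42.0, with library totals or upper-quartile scaling, with other filters, a replicate block, summed paralogs, other keratin references, and leaving out each mouse. The count of non-overlapping members without *Supt6*-KO mouse 4 was added after seeing the data. Mice are separate animals. No pairing is described.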

Additional observations from a re-analysis of the deposited data

Results flagged for a closer look

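In 90 groups of values per mouse, 3 values, from 2 mice, stood apart from their group by Dixon's criterion, where chance gives about 4.5. *Supt6*-KO mouse 3 held *Serpinb12* at 21.5% of the counts of the 10 serpins, against 18.5 to 19.0% in the other *Supt6*-KO mice. *Supt6*-KO mouse 4 had 0.671 *Serpinb2* counts per *Serpinb5* count, against 0.306 to 0.364. The same mouse had 173 *Serpinb11* counts per *Serpinb13* count, against 11.9 to 35.7 in the other *Supt6*-KO mice and 0.812 to 1.09 in controls.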

How the results depend on the processing

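With library totals 1470 genes were called higher and 6802 lower instead of 3427 and 4088, and 4 of the 10 serpins were called higher instead of 7. When each group of similar genes was summed to 1 row (*Serpinb3a* to *Serpinb3d*, *Serpinb1a* to *Serpinb1c*, and the *Serpinb6* and *Serpinb9* genes), 4 of the 7 rows that hold the 10 serpins were called higher, and *Serpinb1a* was then part of a sum. Per *Krt14* alone the summed serpins differed by 0.74. The sign turned for *Serpinb7* with library totals (-0.64), with the replicate block (-0.24) and without *Supt6*-KO mouse 2 (-0.20, against 0.48 without *Supt6*-KO mouse 4). With library totals the sign also turned for *Serpinb6b* (-0.15), *Serpinb9* (-0.41), *Vps4b* (-0.22), *Cst3* (-0.42), *Mmp9* (-0.25) and *Krt10* (-0.55). Further genes of the lists turned as well, among them *Ctsb* (0.61 to -0.06) and *Ctsk* (0.37 to -0.37). The cause was not tested. Without *Supt6*-KO mouse 2 *Serpinb10* fell to 0.94, under 2-fold. Without *Supt6*-KO mouse 4 *Serpinb2* fell under 2-fold (0.97) and *Serpinb8* passed it (1.12), so the count of members stayed at 7. Leaving out each mouse gave 3248 to 3476 genes higher and 3845 to 4204 lower, and 2.56 to 2.87 for the summed *Serpinb3* genes. DESeq2, upper-quartile factors and other filters left the 7 calls among the 10 serpins in number.

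Mice with the same number in both groups did not all deviate together. Their correlations were -0.009 to 0.159 (2 of 4 above 0.1), so the numbers were not taken as pairs. With the replicate block 3134 genes were called higher and 3834 lower, 7 of the 10 serpins were higher, and the summed *Serpinb3* genes were at 2.58. Depth limits the scarce genes: *Serpinb3c* and *Serpinb3d* had under 40 counts in any control library, and *Serpinb6e* had 0 to 47 counts over all libraries.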
